A study of Mus musculus with 57 samples.

Results

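Proteasome genes were followed in total RNA of mouse oocytes and preimplantation embryos. The members are the 50 protein-coding genes whose symbols start with Psma, Psmb, Psmc, Psmd, Psme, Psmf or Psmg, out of 21918 protein-coding rows and 59119 rows in all. By role they comprise 7 alpha-ring and 7 constitutive beta-ring subunits of the core particle, and 9 base and 8 lid subunits of the regulatory particle. Together these make 31 constitutive subunits. The others are 3 base chaperones, 4 core assembly chaperones, 6 activators or inhibitors, 5 tissue-specific core subunits and Psmc3ip. Psmc3ip shares the prefix but encodes a partner of the meiotic recombinases and no part of the proteasome, so it is described on its own, though it is counted among the members in every count. Another 4 rows with these prefixes are pseudogenes (Psmb5-ps, Psmb7-ps2, Psmb6-ps and Psmb6-ps2) and were left out. Reads of a subunit and of its processed copies can be exchanged by the counting, which was not tested.

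The proteasome degrades proteins that carry ubiquitin. Its core particle is a barrel of alpha and beta rings, and 3 of the beta subunits cut peptide bonds. The regulatory particle caps the barrel: its base holds a ring of ATPases that unfold the substrate, and its lid holds the enzyme that removes the ubiquitin chain. Other caps (Psme1 with Psme2, Psme3, Psme4) open the barrel without ATP. In lymphoid and interferon-treated cells Psmb8, Psmb9 and Psmb10 replace the constitutive catalytic subunits. Oocytes store subunit mRNA and protein, and proteasomes take part in clearing maternal proteins after fertilization, when the embryo passes from stored to newly made transcripts.

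The stage series held wild-type C57BL/6 samples of MII oocytes, Zygote, E2-cell (early 2-cell), L2-cell (late 2-cell), 4-cell, 8-cell, Morula and Blastocyst, with 2 columns each. The labels give 150 to 200 embryos per library for this kind of sample. A time series held wild-type BDF1 embryos at 14, 17 and 20 hours after fertilization, again with 2 columns each. In the knockdown, BDF1 MII oocytes received an antisense oligonucleotide (ASO) by injection (20 uM, 5 to 10 pL) against the long noncoding RNA LncR-3363, giving 4 KD-1cell columns and 1 KD-2cell column beside 4 wild-type Ctrl columns. In the knockout, BDF1 oocytes received sgRNA at 150 ng/uL with Cas9 mRNA at 100 ng/uL against MT2Mm, the long terminal repeat that serves as promoter of the MERVL retrotransposon. Its groups are Late1c_MT2Mm_ko, Early2c_MT2Mm_ko and their wild-type ctrl groups, from animals of 6 to 8 weeks, with 3 columns each. The sources used here do not say whether controls were injected, what stage the words 1cell and 2cell stand for, or whether replicates were separate pools of embryos. The p-values therefore measure the spread between columns, which may be technical. Injected embryos can be mosaics, and these pooled samples give their average.

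Levels are given as FPKM, a fragment count divided by transcript length and library size, so genes can be compared within a column, and each value is a share of its library rather than an amount per embryo. A lower level from fewer cells of a kind and one from less RNA per cell cannot be told apart in such bulk samples. Read depth is unknown, since the table holds no counts. The summed FPKM of a column ran from 311543 to 720832, and 10704 to 12892 rows reached 1 FPKM. Correlations between replicate columns on the log2 scale ran from 0.956 to 0.994. Stage labels were checked against marker genes: 9 oocyte markers summed to 4216 to 4764 FPKM in MII oocytes and to 8.75 to 9.54 in blastocysts, 8 markers of the 2-cell stage to 307 to 332 in E2-cell embryos, and 9 blastocyst markers to 1558 to 1662 in blastocysts against 2.70 to 3.29 in MII oocytes. Lists for cumulus and granulosa cells, sperm and leukocytes summed to at most 8.89, 8.14 and 5.40 FPKM in any column of any group. LncR-3363 and the MT2Mm repeat have no row that could be matched by name, so the targets were not analysed here.

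Promoter sequences are shown for 4 members whose levels moved in different ways, because the letters near their start sites can be set beside those levels. They cover the 120 bases before the transcription start, 5′ to 3′ on the gene's strand, from RefSeq on GRCm38.p6, with motif matches in capitals. The motifs searched on both strands were the antioxidant response element core TGACNNNGC, bound by factors of the Nfe2 family such as the proteasome regulator Nfe2l1, CCAAT, the GC box GGGCGG and the interferon-stimulated response element core. Psmb5 and Psmb6 encode catalytic subunits, Psmd9 a base chaperone and Psme3 a nuclear activator.
Psmb5, chr14:54617996-54618115, minus strand: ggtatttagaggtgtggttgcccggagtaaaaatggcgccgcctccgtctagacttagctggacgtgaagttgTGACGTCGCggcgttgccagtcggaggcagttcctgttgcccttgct
Psmb6, chr11:70525237-70525356, plus strand: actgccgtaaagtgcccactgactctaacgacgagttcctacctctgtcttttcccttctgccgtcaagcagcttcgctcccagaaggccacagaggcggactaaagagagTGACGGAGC
Psmd9, chr5:123228070-123228189, plus strand: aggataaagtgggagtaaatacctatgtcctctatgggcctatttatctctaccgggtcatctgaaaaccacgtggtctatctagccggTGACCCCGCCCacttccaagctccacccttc
Psme3, chr11:101316093-101316212, plus strand: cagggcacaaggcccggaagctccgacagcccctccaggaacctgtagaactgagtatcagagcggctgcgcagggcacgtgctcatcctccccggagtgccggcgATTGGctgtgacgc

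The capitals mark the antioxidant response element core in Psmb5 and Psmb6, that core overlapping a GC box on the other strand in Psmd9, and a reversed CCAAT box in Psme3. RefSeq windows were found for 42 of the 50 members. In the 250 bases before the start, the antioxidant response element core was present in 5 of the 42 (Psmb5, Psmb6, Psmc6, Psmd9 and Psmd12), or 11.9%, beside 11.5% of all 27025 genes with a window. CCAAT was present in 35.7% of members and 37.5% of genes, and the GC box in 52.4% and 35.4%. The interferon-stimulated core was present in 3 members (Psmb3, Psmd4 and Psmd9), or 7.14%, beside 3.46% of genes. Of the 5 carriers of the antioxidant response element core, Psmb5, Psmb6, Psmc6 and Psmd12 had their highest stage mean in blastocysts and Psmd9 in MII oocytes. The lowest mean fell in L2-cell embryos for Psmb6, Psmc6 and Psmd9 and in E2-cell embryos for Psmb5 and Psmd12. A match is a description of letters and not a bound site.

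The summed level of the constitutive subunits was lowest in E2-cell embryos and highest in blastocysts. Their FPKM summed to 1486 and 1155 in the MII columns, 956 and 1159 in zygotes, 507 and 490 in E2-cell embryos and 642 and 663 in L2-cell embryos. The sum was 1437 and 1440 at the 4-cell stage, 2082 and 2107 at the 8-cell stage, 2472 and 2525 in morulae and 3202 and 3273 in blastocysts. As a share of all protein-coding FPKM, the group's mean was 0.619% in MII oocytes, 0.268% in E2-cell embryos and 1.32% in blastocysts, the same order as the sums. The coefficient of variation among the 31 subunits was 0.684 to 0.765 in the MII columns, 0.833 to 1.004 in zygotes, 0.771 to 0.784 in E2-cell embryos, 0.612 to 0.613 in L2-cell embryos and 0.478 to 0.479 in blastocysts. The subunits were thus least alike in level in zygote and E2-cell columns and more even in blastocysts than in oocytes. Of these subunits 24 had their highest mean in blastocysts, 4 in morulae (Psmb7, Psmd3, Psmd7 and Psmd8), 2 in zygotes (Psma2 and Psma7) and 1 in MII oocytes (Psmd4). With columns scaled by the median of ratios 19 peaked in blastocysts and 9 in morulae. The lowest mean fell in E2-cell embryos for 19 subunits and in L2-cell embryos for 10.

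**Figure D1:**
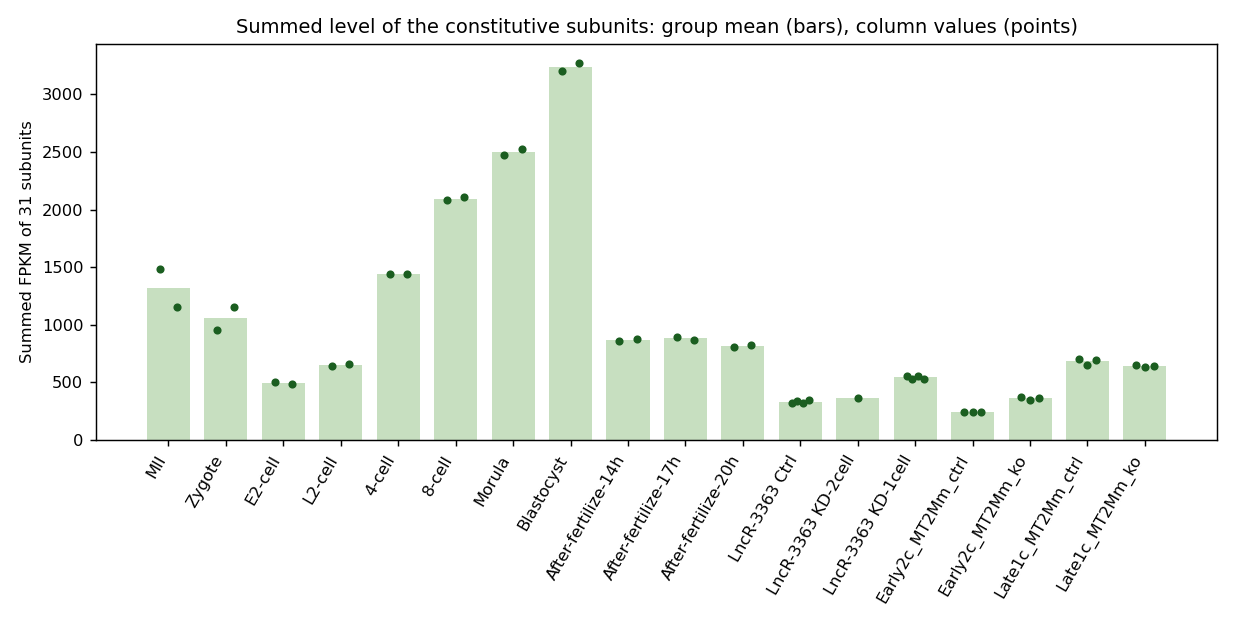
Summed FPKM of the 31 constitutive subunits in the 18 groups, with the group mean as a bar and each column as a point. The stage series dips to 490 to 507 in E2-cell embryos and reaches 3202 to 3273 in blastocysts. The Ctrl and Early2c_MT2Mm_ctrl bars lie under those of the matching perturbed groups, while the Late1c_MT2Mm_ctrl bar (685) lies above that of Late1c_MT2Mm_ko (644).

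**Figure D2:**
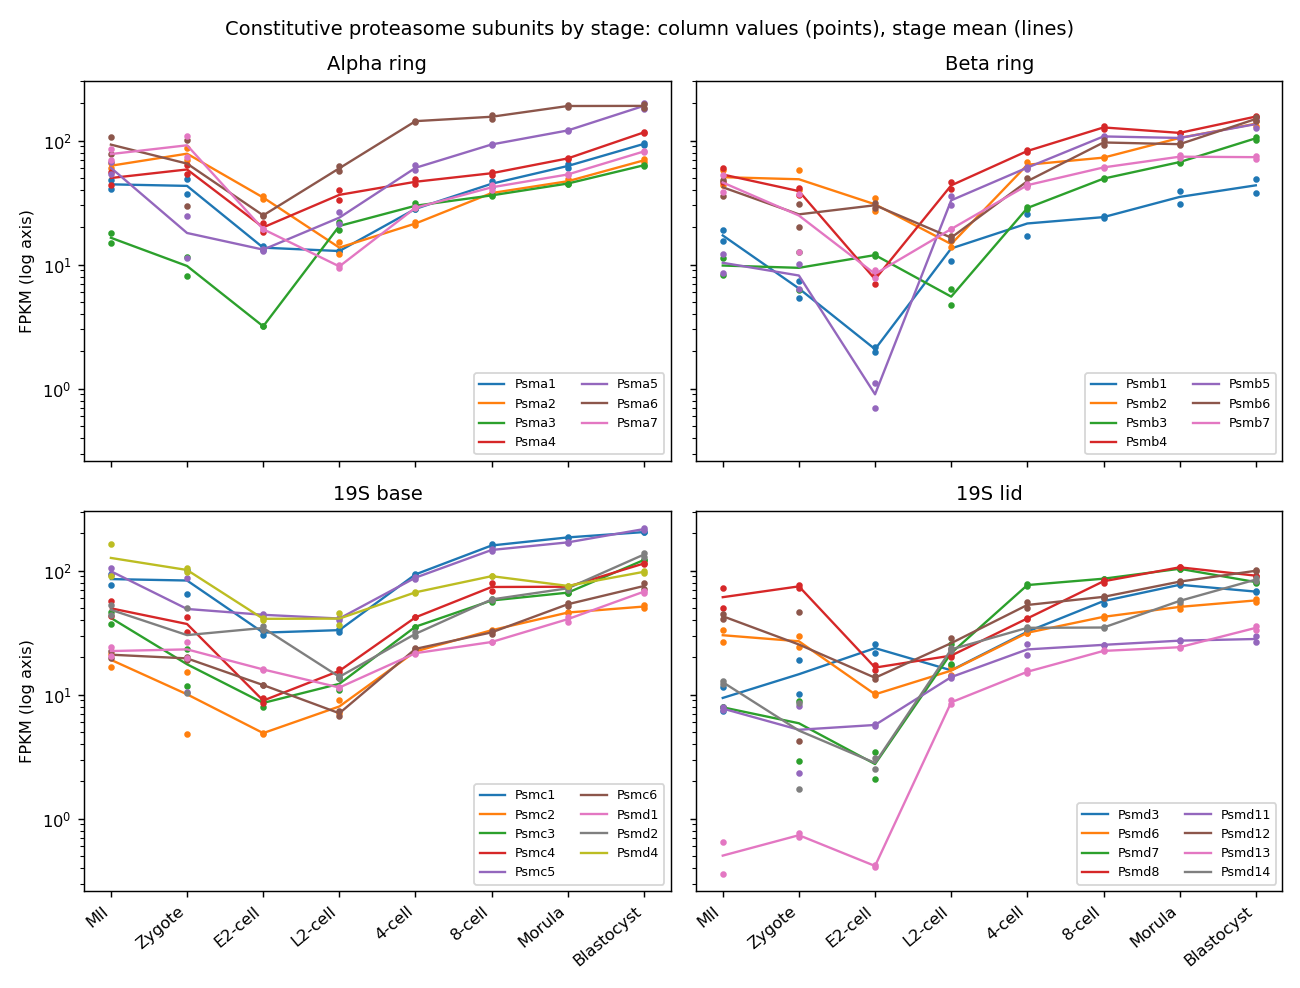
FPKM (log axis) of each constitutive subunit across the 8 stages, in panels for the alpha ring, beta ring, base and lid, with 2 column values per stage as points and lines through the stage means. Most lines dip at the 2-cell stages and rise from the 4-cell stage, and Psmd13 starts under 1 FPKM.

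Alpha-ring subunits form the outer rings and the gate of the barrel. Psma6 was at 108 and 77.8 FPKM in MII oocytes, 29.5 and 101 in zygotes, 24.8 and 25.1 in E2-cell embryos, 142 and 145 at the 4-cell stage and 184 and 197 in blastocysts. Psma7 was lowest a stage later: 85.6 and 70.2 in MII oocytes, 109 and 74.1 in zygotes, 19.3 in both E2-cell columns, 9.36 and 10.0 in L2-cell embryos and 83.2 and 80.5 in blastocysts. Its blastocyst columns lie within the range of its MII columns, and blastocyst minus MII was 0.08 ± 0.17 (log2, SE). Psma3 was the lowest alpha subunit in E2-cell embryos, with 3.18 in both columns, and stood at 19.1 and 22.0 in L2-cell embryos. So within a single ring Psma3 rose and Psma7 fell between the same 2 groups, by 2.51 ± 0.16 (adjusted p = 1.1e-07) and -0.96 ± 0.17 (adjusted p = 0.00032). Psma2 fell there as well, by 1.32 on the log2 scale, from 35.9 and 33.6 to 12.2 and 15.2 FPKM, while Psma4, Psma5 and Psma6 rose.

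Among the catalytic beta subunits, Psmb5, which carries the chymotrypsin-like activity, had the widest range. Its columns read 12.1 and 8.58 FPKM in MII oocytes, 10.0 and 6.31 in zygotes, 0.693 and 1.11 in E2-cell embryos, 30.2 and 35.8 in L2-cell embryos and 146 and 126 in blastocysts. The E2-cell columns lie under those of every other stage, and the change from E2-cell to L2-cell was 4.59 ± 0.23 (log2, SE; adjusted p = 1.7e-08), the largest rise of any member at that step. Psmb6, the caspase-like subunit, stood at 31.5 and 28.8 in E2-cell embryos and at 15.9 and 17.1 in L2-cell embryos, a fall of 0.85 on the log2 scale (adjusted p = 0.0023). Psmb7, the trypsin-like subunit, was at 9.05 and 7.78 and then at 19.5 and 19.3, a rise of 1.16 ± 0.36. The catalytic subunits thus did not follow a single course: in E2-cell embryos Psmb6 exceeded Psmb5 in both columns, and in L2-cell embryos Psmb5 exceeded Psmb6. Of the beta subunits that do not cut, Psmb4 followed Psmb5, with 8.34 and 6.92 FPKM in E2-cell embryos and 40.6 and 46.5 in L2-cell embryos, and Psmb1 went from 1.99 and 2.18 to 10.7 and 16.3. Psmb2 and Psmb3 went from 34.2 and 27.1 to 13.9 and 15.4, and from 12.2 and 11.7 to 4.73 and 6.32, and both fell.

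The base subunits were among the most abundant members. Psmc5, an ATPase, was at 106 and 92.3 FPKM in MII oocytes, 43.3 and 44.9 in E2-cell embryos, 40.4 and 41.9 in L2-cell embryos, and 214 and 219 in blastocysts, where it was the highest of the 31 subunits in both columns. Psmd4, a receptor for ubiquitin chains, was at 163 and 90.4 in MII oocytes, 41.5 and 40.4 in E2-cell embryos and 96.2 and 99.8 in blastocysts. Its blastocyst columns fall inside the range of its MII columns, and the difference, -0.31 ± 0.22, did not pass the test. Psmc6 was at 22.4 and 19.7 in MII oocytes, 12.0 in both E2-cell columns, 6.78 and 7.39 in L2-cell embryos and 71.3 and 79.3 in blastocysts. Between E2-cell and L2-cell embryos 1 of the 9 base subunits rose (Psmc4) and 3 fell (Psmc6, Psmd1 and Psmd2), with a median log2 difference of -0.0032, in a step where 31.1% of all rows rose and 37.6% fell.

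At that step 5 of the 8 lid subunits rose and none fell, with a median of 1.05, and whether the lid differed from the base was not tested. Psmd14, the lid enzyme that removes ubiquitin chains, was at 12.9 and 12.3 FPKM in MII oocytes, 2.54 and 3.10 in E2-cell embryos, 23.9 and 22.5 in L2-cell embryos and 82.7 and 86.9 in blastocysts. Psmd7, its partner in the catalytic pair, went from 2.09 and 3.43 to 25.8 and 17.6 between the 2-cell groups and to 75.5 and 77.7 at the 4-cell stage. Psmd13 was under 1 FPKM in every MII, zygote and E2-cell column (0.361 to 0.767), and then 9.01 and 8.36, 14.9 and 15.8, 22.4 and 22.7, 24.0 and 24.3, and 33.4 and 35.8 in the 5 later stages. It rose by 3.32 ± 0.13 from E2-cell to L2-cell embryos (adjusted p = 3.8e-09) and by 5.14 ± 0.13 from MII to blastocyst (adjusted p = 3.2e-11). It was the lowest of the 31 subunits in each MII, zygote and E2-cell column.

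**Figure D3:**
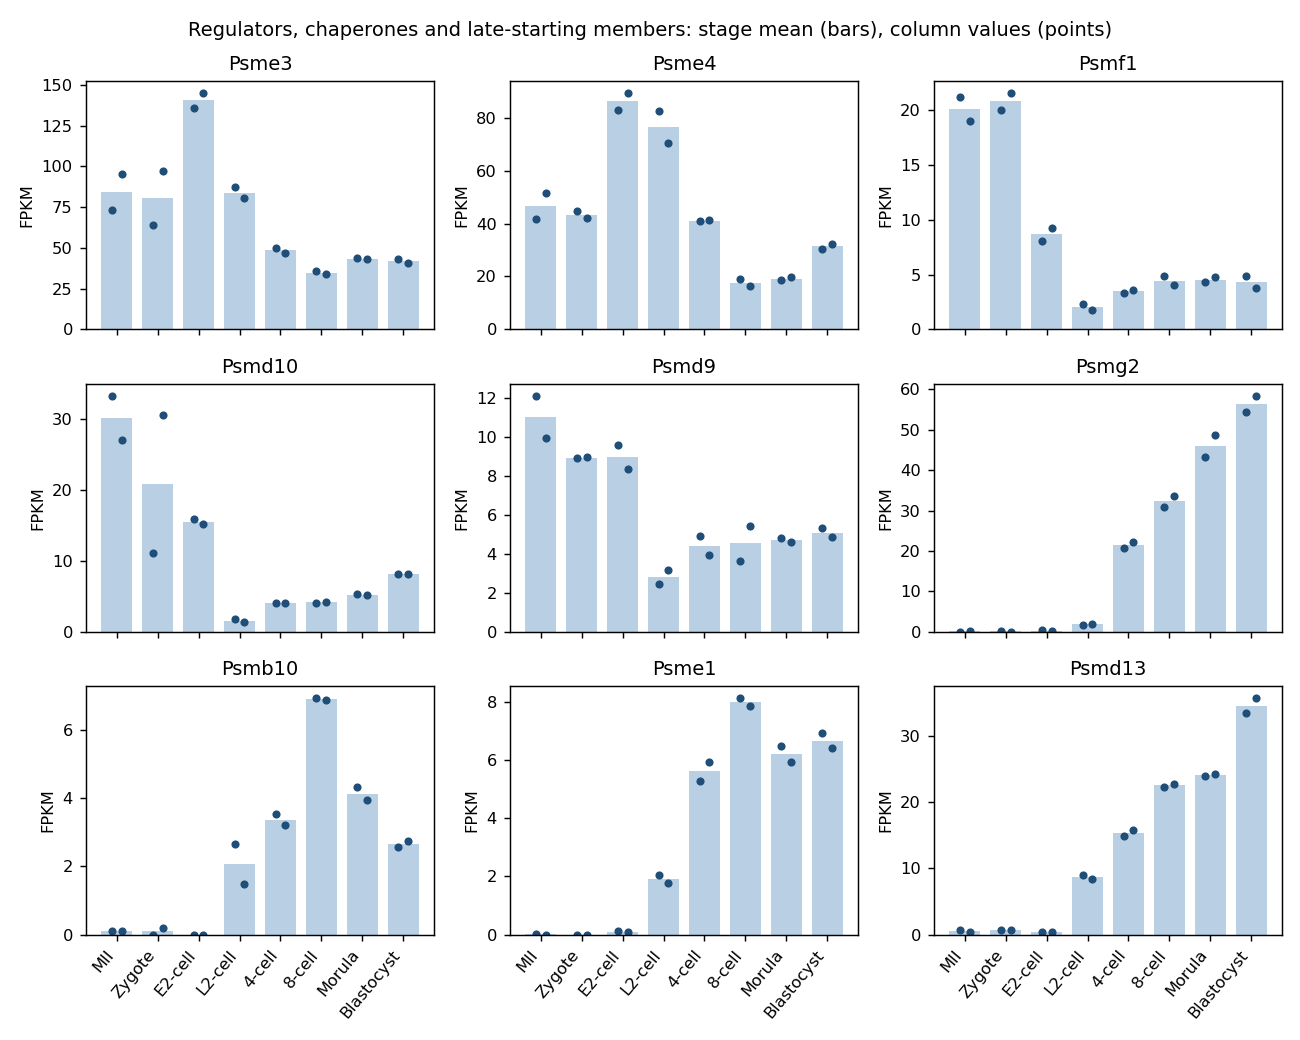
FPKM of 9 members by stage, with the stage mean as a bar and the 2 columns as points. Psme3 and Psme4 are highest in E2-cell embryos, Psmf1, Psmd10 and Psmd9 are highest before the L2-cell stage, and Psmg2, Psmb10, Psme1 and Psmd13 are near 0 until the L2-cell stage.

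The activators Psme3 and Psme4 had their highest mean in E2-cell embryos, where the summed constitutive subunits were lowest, and the inhibitor Psmf1 was highest in MII oocytes and zygotes. Psme3, the nuclear activator also called PA28 gamma, was at 73.3 and 95.4 FPKM in MII oocytes, 64.0 and 97.1 in zygotes, 136 and 145 in E2-cell embryos, 87.3 and 80.3 in L2-cell embryos and 43.0 and 40.9 in blastocysts. Psme4, the activator PA200, was at 41.6 and 51.5, 44.9 and 42.0, 83.1 and 89.5, 82.8 and 70.4, and 30.4 and 32.5 in the same stages, with E2-cell and L2-cell embryos not told apart by the test. Over the 16 stage columns, which share libraries, the log2 level of Psme3 had r = -0.897 and that of Psme4 r = -0.86 with the mean of the constitutive subunits, the 2 most negative values of any member. That of Psmf1 was -0.309, while those of Psme1 (0.788) and Psme2 (0.662) were positive, and Psmc2 had the most positive, 0.976. These values are given as a description. From zygote to E2-cell, Psme3 rose by 0.83 ± 0.18 (adjusted p = 0.0036) and Psme4 by 0.98 ± 0.14 (adjusted p = 0.00015). In the fit of these 2 groups alone the adjusted p of Psme3 was 0.093. Psmf1, an inhibitor of the core particle, was at 21.2 and 19 in MII oocytes and 20.1 and 21.6 in zygotes, and then at 8.11 and 9.29, and 2.32 and 1.72, in E2-cell and L2-cell embryos. Its blastocyst columns, 4.91 and 3.77, lie under every MII column. From MII to blastocyst it fell by 2.1 on the log2 scale, the largest fall of any member in that comparison.

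Psme1 and Psme2 form the heteromeric activator that interferon induces, and lie as neighbours on chromosome 14 (55578123 to 55581529 and 55587441 to 55591113 in GRCm38). Their courses differed. Psme1 was between 0 and 0.129 FPKM from MII to the E2-cell stage, 2.05 and 1.77 in L2-cell embryos, 8.13 and 7.87 at the 8-cell stage and 6.91 and 6.42 in blastocysts. Psme2 was at 3.73 and 2.95 in MII oocytes, 0.311 and 0.646 in E2-cell embryos, 1.20 and 1.46 in morulae and 6.72 and 5.76 in blastocysts, a late rise of 1.88 ± 0.23 from morula to blastocyst (adjusted p = 5.4e-05), the largest of any member at that step. In that step Psme1 differed by 0.10 ± 0.12. The partners thus stood close together in blastocysts but not at the 8-cell stage, where Psme2 was at 1.65 and 1.80. Psme2b, a close copy of Psme2 whose reads may be shared with it, did not exceed 0.0284 FPKM in a stage column.

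The chaperones that assemble the particle followed different courses. The base chaperones were highest in MII oocytes or zygotes: Psmd10 (gankyrin) was at 33.4 and 27.1 FPKM in MII oocytes, 15.9 and 15.2 in E2-cell embryos, 1.82 and 1.34 in L2-cell embryos and 8.11 and 8.14 in blastocysts. Psmd9 was at 12.1 and 9.92, 9.59 and 8.37, 2.44 and 3.16, and 5.30 and 4.85 at those 4 stages. Both fell from MII to blastocyst, by 1.82 and 1.04 on the log2 scale, whereas Psmd5 (20.6 and 14.6 against 14.8 and 10.8) did not pass the test. Among the core assembly chaperones, Psmg2 was at most 0.387 FPKM up to the E2-cell stage, 1.66 and 2.03 in L2-cell embryos, 20.7 and 22.3 at the 4-cell stage and 54.4 and 58.4 in blastocysts. Its obligate partner Psmg1 was already at 22.8 and 18.8 in MII oocytes, 5.73 and 5.35 in L2-cell embryos and 27.8 and 25.6 in blastocysts. The pair was therefore very uneven in oocytes and, with Psmg2 at the higher level, less so in blastocysts. From MII to blastocyst Psmg2 rose by 6.56 ± 0.17 (adjusted p = 3.5e-11), the largest change of any member in that comparison, and Psmg1 differed by 0.36 ± 0.16 (adjusted p = 0.053). Psmg3 and Psmg4, the other pair, stood at 3.47 and 3.67, and at 32.5 and 25.8, in MII oocytes, and at 8.60 and 8.28, and 23.3 and 25.5, in blastocysts. Psmg4 had its highest mean in MII oocytes and its lowest in L2-cell embryos, as did the base chaperones Psmd9 and Psmd10.

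The tissue-specific core subunits were scarce. Psmb8 was listed at 0 in all 16 stage columns. Psmb9 reached 1.10 and 0.934 FPKM in blastocysts and at most 0.227 earlier, which was 0.654 to 0.703 per 100 FPKM of Psmb6, its constitutive counterpart. Psma8, a testis subunit, stayed at or under 0.237, and Psmb11, a thymus subunit, at or under 0.409. Psmb10 alone of this group passed the filter for the stage test. It was between 0 and 0.198 FPKM up to the E2-cell stage, then 2.64 and 1.48, 3.53 and 3.21, 6.93 and 6.87, 4.32 and 3.93, and 2.58 and 2.75 in the 5 later stages. Per 100 FPKM of Psmb7, its counterpart, that was 7.67 to 13.6 in L2-cell embryos, 11.2 to 11.5 at the 8-cell stage and 3.61 to 3.64 in blastocysts. Psmb10 rose from E2-cell to L2-cell embryos by 2.32 ± 0.20 (adjusted p = 1.7e-06) and fell from 8-cell to morula by 0.68 (adjusted p = 0.037), the second of which missed the threshold when any of the 4 columns was left out (adjusted p = 0.10 to 0.18). Of 12 antigen presentation and interferon genes listed, 6 were tested in the stage series. From morula to blastocyst 3 rose and none fell, beside 22.4% and 16.3% of all rows. The steps from MII to L2-cell gave, in order, 1 higher and 0 lower, 1 and 2, and 3 and 1. Those from L2-cell to morula gave 1 and 2, 2 and 1, and 1 and 1. In blastocysts against MII oocytes 4 were higher and 2 lower, beside 40.1% and 40.2% of all rows. H2-D1, a class I heavy chain, was at 5.16 to 5.95 FPKM in morulae and 23.7 to 27.8 in blastocysts.

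From MII oocyte to zygote few members passed the test, and the 2 zygote columns disagreed. The 4 called members fell: Psma5 from 67.1 and 53.6 FPKM to 11.3 and 24.7, Psmb1 from 18.9 and 15.5 to 7.44 and 5.41, Psmc3 from 46.3 and 36.9 to 11.7 and 23.5, and Psma3 from 18.1 and 14.8 to 11.5 and 8.05. That is 0 higher and 4 lower of 45 tested, beside 1.73% and 2.03% of all 19692 rows, or 3.76% either way. In zygote replicate 1, 11 of 41 members were under 0.5 times their level in replicate 2. Psmd12 stood at 4.27 against 46.5 FPKM, Psmc5 at 10.5 against 87.8, Psmd2 at 10.3 against 50.2 and Psma6 at 29.5 against 101. In the other direction 1 member, Psmb3, was over 2 times its level in replicate 2 (12.6 against 6.27). No such count was made over all rows, so whether the disagreement is particular to the members was not tested. The column names tie zygote replicate 1 to the E2-cell columns and zygote replicate 2 to MII replicate 1, by tags whose meaning is not stated. In the fit of the 2 groups alone no member was called, and with the replicate block 2 were. The number of calls depended on which column was left out, for members and for all rows. The members' median log2 difference was -0.30 with all columns, -0.14 without zygote replicate 1 and -0.27 without zygote replicate 2. It was -0.23 without MII replicate 1, and -0.27 with MII replicate 1 and zygote replicate 2 alone, chosen after seeing the data. What sets zygote replicate 1 apart was not tested.

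**Figure D4:**
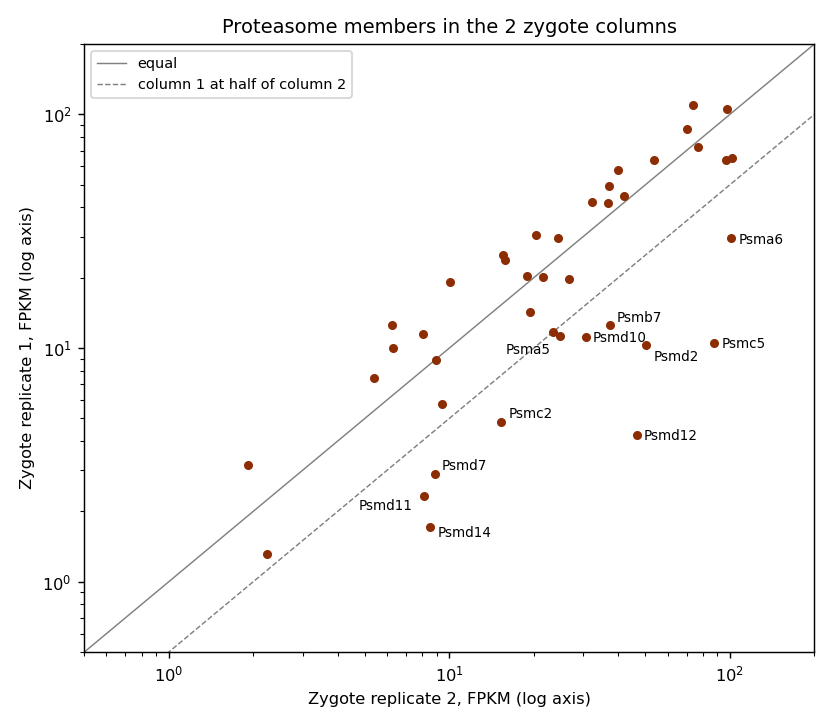
FPKM of the members in the 2 zygote columns, on log axes, with a solid line for equal levels and a dashed line where replicate 1 is at 0.5 times replicate 2. The 11 members named in the plot lie under the dashed line, Psmd12 and Psmc5 farthest.

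From zygote to E2-cell, most of the particle fell while Psme3 and Psme4 rose. Of 45 members 26 fell and 3 rose, beside 26.2% and 17.9% of all rows, or 44.1% either way, with a median log2 difference of -0.82 against -0.01 over all rows. The core particle had 11 of 14 subunits lower, the base 6 of 9 and the lid 3 of 8. The largest falls were those of Psmb5 (by 2.61 on the log2 scale), Psmb4 (2.29), Psma7 (2.19), Psmd8 (2.14) and Psmc4 (1.98). Their adjusted p ran from 4.2e-07 for Psmb4 to 3.8e-06 for Psmb5. Psmd8, a lid subunit, went from 72.3 and 77.2 FPKM to 17.3 and 15.8. Psmd3, also a lid subunit, was the third member called higher, at 19.2 and 10.1 against 21.8 and 25.7, and lost its call without zygote replicate 2 (adjusted p = 0.30) or without either E2-cell column. Over the 45 members the median log2 difference was -1.2 without zygote replicate 1 and -0.47 without zygote replicate 2. In the column names zygote replicate 1, but not replicate 2, carries the tag of both E2-cell columns. The part of the tag in this step was not tested. Of 31 other genes of the pathway 2 rose and 7 fell, among them the ubiquitin gene Ubb (by 1.43).

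From E2-cell to L2-cell the members split. Of 45, 21 rose and 13 fell, beside 31.1% and 37.6% of all rows (68.7% either way), and the median was 0.56 against -0.10 over all rows. After Psmb5 and Psmd13 the largest rises were those of Psmd14 (2.84 ± 0.45), Psmd7 (2.77 ± 0.37), Psma3 (2.51 ± 0.16) and Psmc3ip (2.45 ± 0.26). The largest falls were those of Psmd10 (by 2.96), Psmf1 (by 1.88), Psmg1 (by 1.56) and Psmd9 (by 1.53), a base chaperone, the inhibitor, a core chaperone and another base chaperone. In the same columns the oocyte markers summed to 1230 to 1363 and then to 323 to 350 FPKM, and 8 of 9 were called lower. Here the stage cannot be told apart from the tag in the column names, which is shared by both E2-cell columns and differs from that of both L2-cell columns. In the pathway list 8 of 31 rose, among them Rps27a (3.12 ± 0.17), which encodes ubiquitin fused to a ribosomal protein, and 11 fell, led by Akirin2 (by 1.87), which carries proteasomes into the nucleus, and Ecpas (by 1.56).

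From L2-cell to 4-cell 34 of 45 members rose and 3 fell, beside 30.2% and 26.2% of all rows (56.3% either way), with a median of 1.01 against 0 over all rows. The stage cannot be told apart from the column names here either, since both L2-cell columns carry the same tag while the columns from the 4-cell stage to the blastocyst carry the word merge, whose meaning is not stated. The core particle had 13 of 14 subunits higher, the base 7 of 9, the lid 5 of 8 and the core assembly chaperones 4 of 4. Psmg2 rose by 3.23 ± 0.17, Psmb3 by 2.29 ± 0.26, Psmb2 by 2.09 ± 0.20 and Psmd7 by 1.82 ± 0.37. Psmb3 and Psmb2, which had fallen between the 2-cell groups, stood at 29.3 and 27.9, and at 60.4 and 67.5 FPKM. The 3 members that fell were Psme4 (by 0.89), Psme3 (by 0.78) and Psmc3ip (by 0.86), the last losing its call without L2-cell replicate 1 or without the first of the 4-cell columns. Usp14, the deubiquitinase bound to the base, rose by 2.03 ± 0.11 and Rps27a by 2.51 ± 0.17, among 17 of 31 pathway genes higher and 3 lower.

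From 4-cell to 8-cell 19 members rose and 1, Psme4, fell, beside 13.4% and 21.6% of all rows (35.0% either way). Psme4 went from 40.9 and 41.3 to 18.9 and 16.5 FPKM, a fall of 1.19 on the log2 scale. Among the rises were Psmg4 (1.16 ± 0.22), Psmb6 (1.03 ± 0.19), Psmd8 (0.99 ± 0.15) and Psmb10 (0.94 ± 0.20). The count of called members was 11 to 14 when 1 column was left out, lowest without the first 4-cell column or 8-cell replicate 2. From 8-cell to morula 3 rose (Psmc6 by 0.74, Psmd1 by 0.60 and Psma1 by 0.47) and Psmb10 fell, beside 8.39% and 12.5% of all rows (20.9% either way). Without a column, 1 or 2 were called, and Psmc6 was the member whose call held under each alternative. With scaled columns the split was 2 higher and 2 lower, beside 7.9% and 12.6% of all rows. In the fit of these 2 groups alone it was 27 higher and 4 lower of 45, beside 2482 and 2794 of 12012 rows.

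From morula to blastocyst 15 members rose and 1 fell, beside 22.4% and 16.3% of all rows (38.7% either way). With scaled columns the split was 6 and 3, beside 17.8% and 19.9% of all rows, and without 1 column 8 to 10 were called, fewest without morula replicate 1. Beside Psme2, the rises included Psmd5 (1.04 ± 0.23), Psmc3 (0.87 ± 0.25), Psmd1 (0.73 ± 0.14), Psme4 (0.70 ± 0.14) and Psma4 (0.69 ± 0.15). Psmc3 lost its call without any of the 4 columns (adjusted p = 0.069 to 0.072). Psmc3ip fell by 0.78, a call lost without blastocyst replicate 1 or without either morula column. Over the whole series, blastocysts against MII oocytes, whose column names also carry different tags, 30 members were higher and 6 lower, beside 40.1% and 40.2% of all rows (80.3% either way), with 25 of 31 constitutive subunits higher and none lower. The 6 lower ones were Psmf1, Psmd10, Psmd9, Psme3, Psme4 and Psmc3ip, none of them a constitutive subunit. Of the subunits, Psma2, Psma7, Psmb7, Psmc5, Psmd4 and Psmd12 did not pass. In the pathway list 14 of 31 were higher and 10 lower: Rps27a (5.54 ± 0.17) led the rises, and Akirin2 (by 3.13) and Ngly1 (by 2.85) the falls. Pomp, the maturation factor of the core particle, was at 5.17 to 6.44 FPKM in MII oocytes and 22.1 to 22.5 in blastocysts.

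Psmc3ip, the recombination factor that the prefix catches, was at 16.1 and 11.2 FPKM in MII oocytes, 3.59 and 4.06 in E2-cell embryos, 24.0 and 22.3 in L2-cell embryos and 4.26 and 6.74 in blastocysts. Its peak in L2-cell embryos was shared by no other member. Its correlation with the constitutive subunits was 0.102 over the 16 columns.

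Between 14 and 20 hours after fertilization, in BDF1 embryos, changes were small and went both ways. The constitutive subunits summed to 861 and 876 FPKM at 14 hours, 898 and 870 at 17 hours and 811 and 822 at 20 hours. From 14 to 17 hours 6 of 41 tested members rose and 8 fell, beside 20.5% and 16.5% of all 12834 rows (37.0% either way). From 17 to 20 hours 5 rose and 12 fell, beside 5.13% and 14.5% (19.6% either way). The names of both 17-hour columns end in another word than those of 14 and 20 hours, so time and that word cannot be told apart in either step. No change in either step exceeded 0.53 on the log2 scale in size. In the first step Psmg4 fell by 0.53, from 7.48 and 8.06 to 5.09 and 5.33 FPKM, Psmd3 fell by 0.43, and Psmc6 rose by 0.30 ± 0.05, from 12.9 and 12.5 to 15.9 and 15.7. In the second Psma6 fell by 0.39 (60.8 and 59.2 to 46.1 and 45.3) and Psmd8 by 0.36 (47.2 and 48.3 to 35.7 and 38.5). Psmb3 rose in both, with 6.17 and 6.49, 7.34 and 7.78, and 10.0 and 9.22 FPKM at the 3 times, though its calls were lost when single columns were left out. With scaled columns the first step had 3 higher and 12 lower, beside 14.6% and 21% of all rows. Leaving out a column left 4 to 10 calls in the first step, fewest without 14-hour replicate 2, and 4 to 9 in the second, fewest without 20-hour replicate 1. Oocyte markers summed to 3427 to 3641 FPKM at 14 hours and to 2430 to 2476 at 20 hours.

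**Figure D5:**
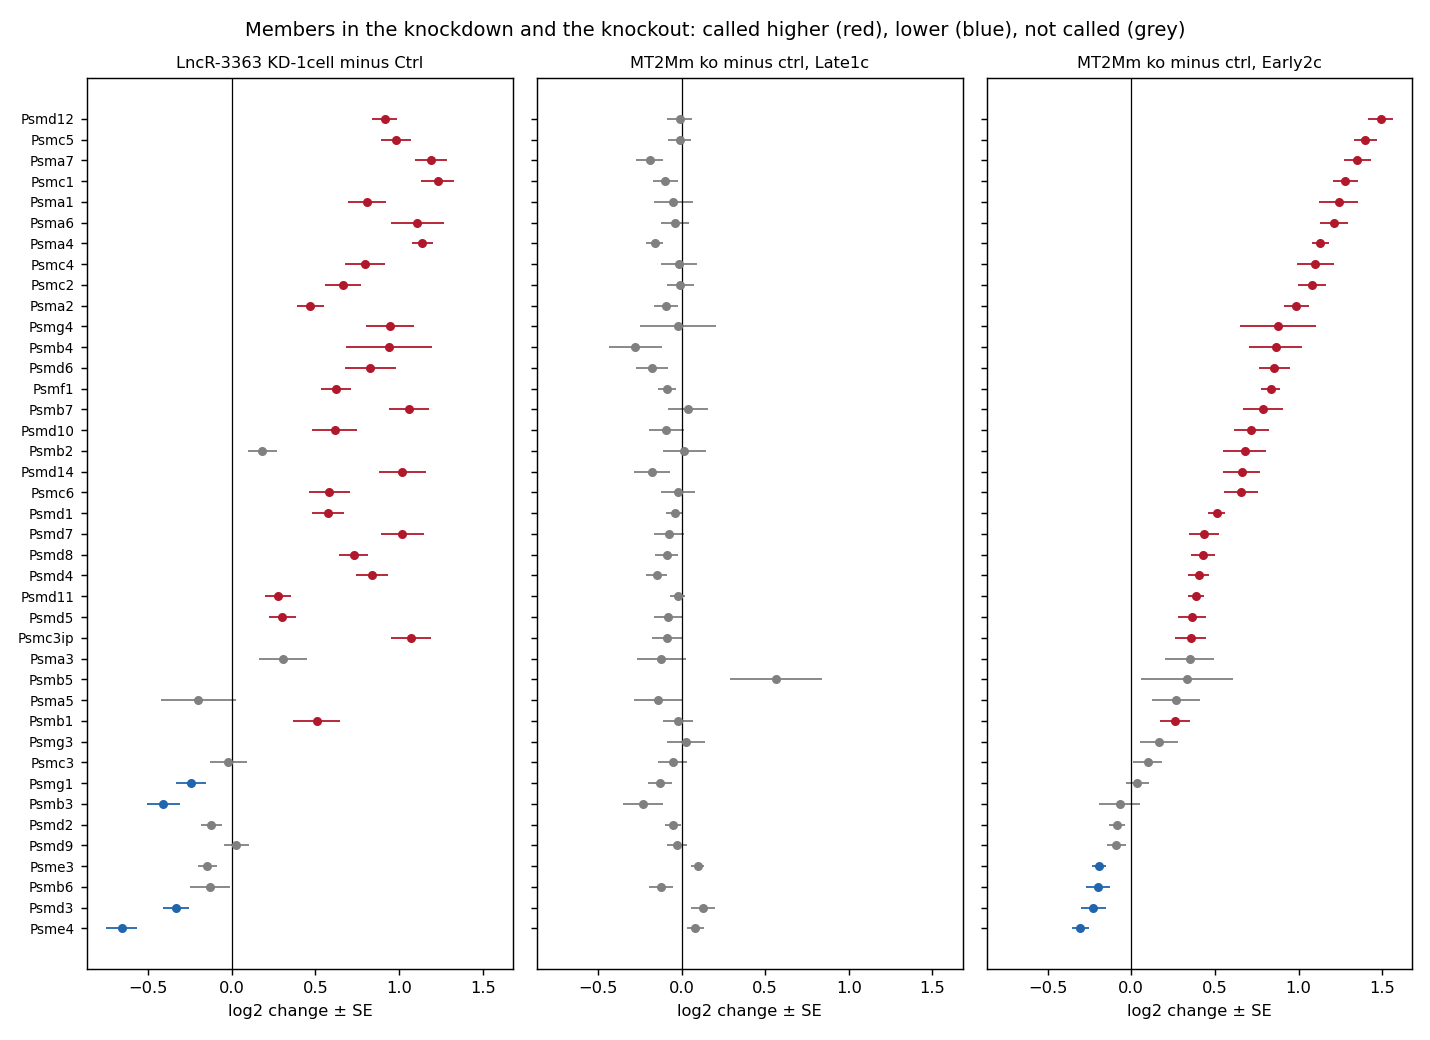
Log2 change with its SE for each tested member in KD-1cell minus Ctrl and in MT2Mm ko minus ctrl at Late1c and at Early2c, in the order of the last. Called members are red (higher) or blue (lower); the middle panel has none, and in the outer panels 26 and 27 are red and 4 and 4 blue.

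In the LncR-3363 knockdown most of the particle was higher than in controls. The columns used carry a short name other than LncR-3363, and that they belong to it rests on the structure of the series. The constitutive subunits summed to 320, 336, 326 and 351 FPKM in Ctrl and to 555.5, 534.5, 560 and 526 in KD-1cell, with no overlap. Of 38 members tested 26 were higher and 4 lower, beside 29.8% and 13.9% of all 11492 rows (43.7% either way), with a median of 0.62 against 0.12 over all rows. Scaling the columns shifts the median of all rows by -0.12, and then 24 members were higher and 6 lower, beside 20.5% and 20.2% of all rows. In the alpha ring 5 of 7 were higher, in the base 7 of 9 and in the lid 6 of 7, with 1 lower. Of the 2 catalytic beta subunits tested 1 was higher, and of the 4 other beta subunits 2 were higher and 1 lower.

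Psmc1, an ATPase of the base, was at 22.1, 25.5, 21.2 and 25.3 FPKM in Ctrl and at 63.2, 59.3, 48.1 and 53.5 in KD-1cell, a rise of 1.23 ± 0.10 (log2, SE; adjusted p = 1.2e-05). Psma7 was at 9.58, 10.7, 11.7 and 12.0 against 29.2, 24.4, 26.1 and 23.1, and Psma4 at 20.9, 24.4, 21.9 and 22.6 against 52.0, 48.4, 52.0 and 47.2. In each of these the lowest KD-1cell column lies above the highest Ctrl column, which the rule for naming members required. Psma6, Psmc3ip and Psmb7 complete the 6 largest rises (1.11 ± 0.16, 1.07 ± 0.12 and 1.06 ± 0.12). Psme4 was lower, with 61.7, 63.4, 63.6 and 57.7 in Ctrl and 44.7, 42.0, 34.8 and 34.6 in KD-1cell, a fall of 0.66 on the log2 scale (adjusted p = 0.00034). The others lower were Psmb3 (by 0.41), Psmd3 (by 0.33) and Psmg1 (by 0.24), of which Psmg1 missed the threshold without any 1 of the 8 columns (adjusted p = 0.051 to 0.12). Psme3 was at 123, 122, 123 and 118 against 107, 110, 119 and 103, a difference of -0.15 ± 0.06 that did not pass. Psmb5 was under 1.10 FPKM in all 8 columns and was not tested.

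The single KD-2cell column has no replicate and entered no test. Its constitutive subunits summed to 365 FPKM. For 28 of the 30 called members it lay nearer to the Ctrl mean than to the KD-1cell mean, for 8 it lay within the Ctrl range and for 0 within the KD-1cell range. Psmc1 read 25.9 and Psme4 59.8 in it. The 30 members had been called from the same Ctrl and KD-1cell columns. No such count was made over all called rows, so whether the column's likeness to Ctrl is particular to the members was not tested. Oocyte markers moved with the same groups: the 9 summed to 686 to 756 FPKM in Ctrl, 943 to 1116 in KD-1cell and 763 in KD-2cell, and 7 of the 9 were called higher in KD-1cell and none lower. Of the 8 markers of the 2-cell stage, which summed to 155 to 197 in Ctrl and 137 to 180 in KD-1cell, 1 was higher and 1 lower. Their part in the members' differences was not tested. In the pathway list 14 of 31 were higher, with Ubb (0.93 ± 0.12), Adrm1 (0.88 ± 0.14), a ubiquitin receptor of the base, and Ubqln2 (0.86 ± 0.08) first, and 6 lower. Ngly1, the deglycosylase that processes the proteasome regulator Nfe2l1, was lowest, at 4.93 to 5.34 FPKM in Ctrl, 0.274 to 0.383 in KD-1cell and 1.61 in KD-2cell, a fall of 2.78 on the log2 scale (adjusted p = 1.5e-07).

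The MT2Mm knockout was compared with its controls at 2 times. At Late1c no member was called in limma's test among 40 tested, beside 0.0455% higher and 0.0683% lower of all 13180 rows (0.114% either way). In that test 4 of the 40 members had an unadjusted p under 0.05, beside 1108 of the 13180 rows. The constitutive subunits summed to 707, 654 and 693 FPKM in ctrl and to 652, 636 and 644 in ko, and the largest differences were 0.56 ± 0.27 for Psmb5 and -0.28 ± 0.16 for Psmb4. At Early2c the sums were 240.5, 242 and 243 in ctrl and 373, 351 and 368 in ko. There 27 members were higher and 4 lower of 40, beside 33.4% and 15.6% of all rows (49.0% either way), with a median of 0.47 against 0.11 over all rows. Scaling shifts the median of all rows by -0.13, and then 25 members were higher and 6 lower, beside 23.7% and 25.5% of all rows. By part, 5 of 7 alpha subunits, 7 of 9 base subunits and 6 of 7 lid subunits were higher, and 1 lid subunit was lower. Of the 3 catalytic beta subunits 1 was higher and 1 lower, and of the 4 other beta subunits 3 were higher.

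Psmd12, a scaffold subunit of the lid, was at 4.27, 3.64 and 3.44 FPKM in Early2c ctrl and at 12.1, 10.9 and 11.4 in ko, a rise of 1.49 ± 0.07 (adjusted p = 1.1e-07). Psmc5 was at 7.76, 8.03 and 8.58 against 22.1, 20.7 and 23.9, and Psma7 at 5.22, 5.85 and 6.42 against 17, 14.7 and 15.2. Psmc1, Psma1 and Psma6 followed, with rises of 1.28 ± 0.07, 1.24 ± 0.12 and 1.21 ± 0.08. That no ctrl column of these 6 reached the lowest ko column follows from the rule by which members were named. The 4 lower members were Psme4, at 83.5, 85.6 and 79.7 against 66.1, 67.5 and 67.2 (a fall of 0.31, adjusted p = 0.0004), Psmd3 (by 0.23), Psmb6 (by 0.20) and Psme3, at 148, 142 and 142 against 126, 128 and 124 (by 0.19, adjusted p = 0.002). Psmb6 lost its call without ctrl replicate 1 or without ko replicate 1 or 2, Psmd3 without ctrl replicate 2 or ko replicate 1. The knockout's effect differed between the times by the interaction test for 29 of 40 members, 26 of them with the higher change at Early2c and 3 with the lower, beside 25.7% and 11.6% of all rows (37.3% either way). Scaling shifts the median of all rows by -0.14 here and gave 23 and 5, beside 17.3% and 19.1% of all rows. The largest such differences were 1.54 ± 0.12 for Psma7, 1.5 ± 0.11 for Psmd12 and 1.41 ± 0.10 for Psmc5.

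Between the control groups, 31 of 40 members were lower at Early2c than at Late1c and 5 higher, beside 45.7% and 33.5% of all rows (79.2% either way), and scaling shifts the median of all rows by 0.17. This comparison and the knockout's at Early2c share the Early2c ctrl columns, so their values are only set side by side. Psmd12 stood at 27.5, 28.1 and 31.2 FPKM in Late1c ctrl, Psmc5 at 49.2, 44.1 and 52.0 and Psma7 at 55.1, 48.7 and 55.2, all above both Early2c groups. For Psme4 the Late1c ctrl columns were 39.4, 43.8 and 39.9 and for Psme3 87.2, 94.1 and 89.5, below both Early2c groups. In each of these 5, picked from the named members, the Early2c ko columns lie between the 2 control groups. Psmb2, also called higher in Early2c ko, differed. Its ko columns were 18.2, 17.2 and 17.8 FPKM, inside the range of its Late1c ctrl columns (19.5, 12.6 and 17.4). No such count was made over all called members or all rows, so whether this is general or particular to the members was not tested. The 5 members higher in Early2c ctrl were Psme4, Psmb6, Psmb3, Psme3 and Psmd3. Marker sums moved with the groups: oocyte markers summed to 1256 to 1627 FPKM in Late1c ctrl, 609 to 664 in Early2c ctrl and 708 to 818 in Early2c ko, where 5 of 9 were called higher and 1 lower. Those of the 2-cell stage summed to 13.8 to 16.9, 323 to 330 and 253 to 262, and 4 of 8 were called lower in the knockout and 1 higher. The part of either list in the members' differences was not tested. In the pathway list 13 of 31 were higher in Early2c ko, led by Vcp (0.91 ± 0.08), the segregase that extracts ubiquitinated proteins, and Usp14 (0.87 ± 0.08), and 6 lower, led by Rps27a (by 0.76).

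The knockdown and the knockout have separate controls, and 38 members were tested in both. All 26 members higher in KD-1cell were among those higher in Early2c ko, which is 100% of the first list and 96.3% of the 27 in the second, with Psmb2 as the member called in the knockout alone. Of all 11396 rows tested in both, 3412 were higher in the knockdown, 3971 in the knockout and 2279 in both, which is 66.8% of the first list and 57.4% of the second. With scaled columns 22 members were higher in both, 91.7% and 88.0% of the lists, beside 60.5% and 50.8% for all rows. With unscaled columns Psme4 and Psmd3 were lower in both, of 4 members lower in each experiment, and no member was called in opposite directions. Of the 11396 rows, 1589 were lower in the knockdown, 1827 in the knockout and 682 in both. Opposite calls were made for 358 rows. A fit of both experiments together was not made, so whether a member's change differed in size between them was not tested. Values of the tissue-specific subunits stayed near 0 in these experiments: Psmb10 did not exceed 0.276 FPKM in any of the 21 columns, Psmb9 0.0646, Psmb8 0.150 and Psma8 0.138. Psmb11 was above 0 in each of them, from 0.0446 to 0.340.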

How the data were processed

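The deposited table holds FPKM values made by the authors, 1 row per gene and 43 columns for 57 samples; several column names mark merged runs, and which samples each of these holds is not stated. The submitters' processing notes name Cuffdiff 2.2.1, StringTie 1.3.4d, Cufflinks, HISAT2 2.1.0 and cutadapt 1.18, and the build GRCm38, without order or settings. The sources used here do not say which library was made with which kit (TruSeq or SMARTer). Columns were matched to groups by name; the 4-cell columns are numbered 3 and 4. Rows were named from GENCODE M21. A row entered a fit if it reached 1 FPKM in at least the number of columns that the fit's smallest group has. The test was limma 3.58.1 (eBayes with trend, R 4.3.3) on log2(FPKM + 0.5), two-sided, with Benjamini-Hochberg adjustment over all rows and a threshold of 0.05; fold changes are on that scale and understate those of low genes. The 8 stages, the 3 times, the knockdown and the 4 knockout groups had a fit each. Of the 50 members 45, 41, 38 and 40 passed the filter in these fits. Other members are given by level only. The members and lists were chosen with earlier results of these data known. Named members are up to 6 called rises and 6 called falls per comparison without overlap of columns, and the regulators, chaperones and tissue-specific subunits by level; from the pathway list up to 3 each way, of which some are not reported here. Others, such as Psma6, Pomp and H2-D1, are named for their role and were chosen after their values were seen. Replicate numbers were checked for pairing and share only a number. The method was tested on simulated data with 200 rows changed by 1 on the log2 scale. It recovered 41.5% of them for E2-cell minus zygote and 77% for 20h minus 17h. For the knockdown it recovered 76.5%, and for the knockout at Early2c 89.5%. A member that did not pass in the stage fit may therefore still differ. Alternatives were pseudocounts of 0.1 and 1, no filter, scaling by the median of ratios, a replicate block, leaving out each column, fits of 2 groups alone, KD-2cell added to its fit, and columns of a shared tag. Figures were drawn with Matplotlib 3.10.9 in Python 3.11.15.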

Additional observations from a re-analysis of the deposited data

Results flagged for a closer look

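In the knockdown, 30 members were called, each with 2 groups of 4 columns. Among these groups 7 held a column far from the other 3. Chance flags about 1 in 20 such groups. The high columns were those of Psmd4 (149 FPKM) and Psmc4 (6.20 FPKM) in KD-1cell and of Psmb4 (3.18), Psmf1 (7.98) and Psmb3 (6.93) in Ctrl. The low columns were those of Psmd6 (9.06) and Psmg1 (10.8) in KD-1cell.

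The effect of the MT2Mm knockout differed between Early2c and Late1c for 29 members by the interaction term in limma. Expressed as log2, effect at Early2c minus effect at Late1c, the difference was 1.54 for Psma7, 1.5 for Psmd12, 1.41 for Psmc5, 1.38 for Psmc1, 1.29 for Psma4 and 1.29 for Psma1, and -0.389 for Psme4, -0.353 for Psmd3 and -0.291 for Psme3. The difference for Psmd3 missed the threshold with no filter (adjusted p = 0.057).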

How the results depend on the processing

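Counts of called members kept within 1.5 times of the reported ones under the alternatives run, except as follows. For zygote minus MII (4 called), the count was 0 in the fit of the 2 groups alone, 2 with the replicate block, 15 with the columns of a shared tag, and 2 to 21 with a column left out. For E2-cell minus zygote (29) it was 19 in the fit of the 2 groups alone. For 8-cell minus 4-cell (20) it was 33 in that fit and 11 to 14 with a column left out. For morula minus 8-cell (4) it was 31 in that fit, 2 with no filter, 2 with the replicate block and 1 to 2 with a column left out. For blastocyst minus morula (16) it was 36 in that fit, 9 with scaled columns and 8 to 10 with a column left out. For 17h minus 14h (14) it was 7 with no filter and 4 to 10 with a column left out, and for 20h minus 17h (17) 8 and 4 to 9. The causes were not tested. In the knockdown the count stayed between 28 and 31, in the knockout at Early2c between 28 and 31, and at Late1c it was 0 under each alternative run. The replicate block, in which the 4-cell columns could not be placed, left 27 calls for E2-cell minus zygote, 29 in the knockdown and 30 in the knockout at Early2c; residual correlations between columns of equal number ran from -0.138 to 0.153. Of 414 called results of single genes under 4623 alternatives in all, none changed direction and 109 missed the threshold under at least 1, among them 4 of 36 in the knockdown and 4 of 37 in the knockout at Early2c. Depth is unknown, so levels under 1 FPKM are given without an error of counting.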
